A study of Homo sapiens with 11 samples.

Results

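The genes described here make the sugar precursor of N-linked glycosylation and trim it after transfer to protein. They are 36 of the 20037 protein-coding genes in the RefSeq table, listed by name for their biochemical role. No value in these data enters the rule, although earlier results of these data were known when the list was made. For each gene, peaks were taken from 10 chromatin immunoprecipitation sequencing (ChIP-seq) peak lists when the summit lay in the gene's GRCh38 span or within 20 kb of it. The comparison set was the 16096 other protein-coding genes with an H3K27ac summit in such a window in both control lists. All 36 genes met that condition as well.

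N-linked glycans are assembled on dolichol phosphate, a long lipid in the membrane of the endoplasmic reticulum (ER). Sugars are added first on the cytosolic face from UDP-GlcNAc and GDP-mannose, and then in the lumen from dolichol-linked mannose and glucose. The finished oligosaccharide is passed to nascent proteins by oligosaccharyltransferase, and glucosidases and mannosidases then trim it while lectin chaperones read the trimmed forms to monitor folding.

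MYRF, a membrane-anchored transcription factor of the ER that releases its own DNA-binding part, was mapped with a home-made antibody in the original CFPAC1 and HPAF2 lines, both from human pancreatic ductal adenocarcinoma. FOS, a subunit of the AP-1 factor, and H3K27ac, a histone mark of active promoters and enhancers, were mapped in CFPAC1 cells cloned by dilution after infection with lentiCRIPSv2 (the labels' spelling). H3K27ac was also mapped in a knockout clone, obtained in the same way, whose plasmid carried Cas9 and a guide RNA against MYRF. The labels do not say whether the FOS and H3K27ac control libraries came from the same clone. Each of the 5 groups had 2 libraries, each condition in clones rested on 1 clone, and an HPAF2 input sample was not analysed here. The H3K27ac control and knockout clones therefore differ in their clonal origin as well as in the MYRF guide, and these cannot be told apart.

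The lists held between 3702 and 4743 peaks for MYRF, 29087 and 36349 for FOS, and between 107586 and 116466 for H3K27ac. They carry no read counts, so depth is unknown. The window of MYRF itself had 11044 and 16297 bp under H3K27ac peaks in the control libraries, against 11283 and 13761 bp in the knockout libraries, groups that overlapped, and a histone mark does not check the edit. All 6 epithelial and ductal markers were covered by H3K27ac in the 4 libraries of the clones, at 15.4% to 100% of the span with 1 kb on each side, whereas the hepatocyte gene ALB, the acinar genes PRSS1 and CEL and the endocrine gene INS were at 0. Of the same lists, the acinar gene CPA1 had 2.86% and 4.75% in the control libraries and 0 in both knockout libraries, and the endocrine gene GCG had 0 to 3.72%. The leukocyte gene CD3E (6.96% to 15.3%) and the endothelial gene PECAM1 (13.5% to 18.4%) were partly covered.

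Of the 36 genes, 34 had an annotated start in the RefSeq promoter table, and ALG10 and MOGS had none. The 250 bases before the start are shown for 4 genes that the results below turn on, on the minus strand of GRCh38.p14 and written 5′ to 3′ toward the gene. DPAGT1 (chr11:119101854-119102103) and ALG3 (chr3:184248972-184249221) had MYRF summits at the start, and capitals run between the outermost MYRF summits in the stretch, which came from 4 libraries for DPAGT1 and from 2 for ALG3. In ALG2 (chr9:99221943-99222192) the capitals run between the FOS summits of both libraries. In ALG12 (chr22:49918439-49918688) they mark a match to the ER stress response element (ERSE), the composite motif known for ATF6 and XBP1 action at chaperone genes.
DPAGT1: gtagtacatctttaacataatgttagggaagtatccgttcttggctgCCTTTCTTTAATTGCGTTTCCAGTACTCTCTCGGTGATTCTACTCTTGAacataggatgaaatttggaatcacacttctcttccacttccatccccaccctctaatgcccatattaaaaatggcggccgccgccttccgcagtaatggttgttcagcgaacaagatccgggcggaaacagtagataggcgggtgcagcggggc
ALG3: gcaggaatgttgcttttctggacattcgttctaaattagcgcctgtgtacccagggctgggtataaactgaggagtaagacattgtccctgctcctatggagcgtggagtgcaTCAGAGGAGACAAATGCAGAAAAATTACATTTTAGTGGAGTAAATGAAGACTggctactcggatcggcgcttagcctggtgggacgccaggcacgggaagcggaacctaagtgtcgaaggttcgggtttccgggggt
ALG2: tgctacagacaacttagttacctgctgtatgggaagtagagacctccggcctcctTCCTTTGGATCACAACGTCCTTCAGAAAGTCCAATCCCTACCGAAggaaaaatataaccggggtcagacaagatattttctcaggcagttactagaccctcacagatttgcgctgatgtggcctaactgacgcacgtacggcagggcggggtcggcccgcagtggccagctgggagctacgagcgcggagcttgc
ALG12: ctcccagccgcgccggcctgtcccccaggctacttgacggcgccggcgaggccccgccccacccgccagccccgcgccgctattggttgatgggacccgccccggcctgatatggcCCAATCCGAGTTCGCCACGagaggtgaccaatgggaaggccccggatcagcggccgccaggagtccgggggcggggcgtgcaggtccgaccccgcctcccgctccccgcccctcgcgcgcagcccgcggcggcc

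MYRF peaks lay in few of these windows, at shares near or below those of other genes. In CFPAC1, 4 of 36 genes (11.1%) had a MYRF summit in the window in both libraries, against 14.2% of the other acetylated genes. They were DPAGT1, ALG3, DPM1 and GFPT1. In HPAF2 the count was also 4 (11.1%), against 13.1% of the others, and the genes were DPAGT1, DPM2, GMPPA and MPDU1. DPAGT1 alone had a summit in all 4 MYRF libraries, 2.78% of the members against 7.76% of the others. These shares are descriptions and were not tested. With UGGT1, which had a peak in CFPAC1 replicate 1 only, 8 genes had a MYRF summit in at least 1 list, and 28 had none in any of the 4. Split by FOS, the 8 were 5.56% (FOS in both lists), 5.56% (FOS in 1 list) and 11.1% (no FOS) of the members. In the same order, the other acetylated genes with MYRF in at least 1 list were 26.0%, 2.26% and 3.98% of their set, so most of them also lacked MYRF.

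**Figure D1:**
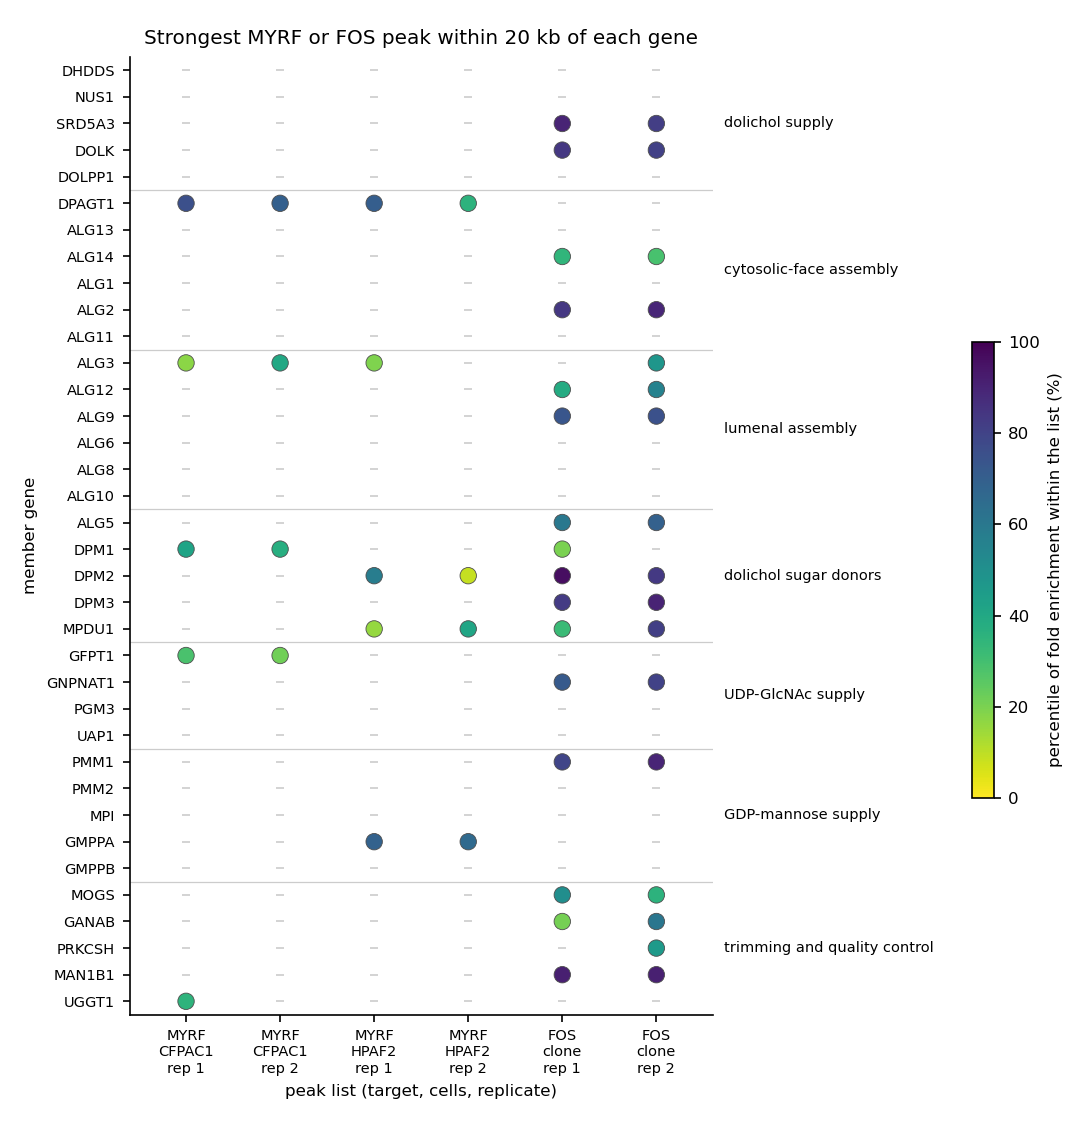
Highest peak in the window of each of the 36 genes (rows, grouped by role) in the 4 MYRF lists and the 2 FOS lists (columns); colour gives the percentile of fold enrichment within that list, and a grey dash marks no summit. DPAGT1 is the only row filled in all 4 MYRF columns, and 15 rows are filled in both FOS columns.

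DPAGT1 encodes the enzyme that starts the glycan by putting GlcNAc-phosphate on dolichol phosphate, the step blocked by tunicamycin. Its MYRF peak (chr11:119101888-119102158 in CFPAC1 replicate 1) had a fold enrichment over background, as the authors' peak caller gave it, of 6.90 and 6.43 in CFPAC1 (replicates 1 and 2) and of 6.70 and 4.75 in HPAF2. Within each list these folds stood at percentiles 75.6, 69.9, 70.6 and 35.7, counted from the weakest peak, so HPAF2 replicate 2 was the low one. The 4 summits lay 180, 155, 203 and 174 bp upstream of the DPAGT1 start, in the capitals of the first sequence above. The interval is shared with a neighbour, since the span of C2CD2L begins 396 bp upstream of the DPAGT1 start. For the first HPAF2 summit C2CD2L was the nearer gene, at 193 bp. No FOS peak overlapped the site, and H3K27ac peaks covered all 2000 bp around the summit in both control and both knockout libraries.

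ALG3, the lumenal mannosyltransferase that adds the first mannose from dolichol-linked donor, had weaker MYRF peaks at its start. In CFPAC1 replicate 1 the summit lay 137 bp upstream with a fold of 3.97 (percentile 17.3), and in replicate 2 it lay 33 bp downstream with 4.90 (percentile 40.1). HPAF2 replicate 1 had a summit 86 bp upstream with 4.07 (percentile 19.2), and HPAF2 replicate 2 had no peak in the window. The peaks of the 3 libraries overlapped one another. Around the CFPAC1 replicate 1 summit, 1777 and 1806 bp of 2000 were acetylated in the control libraries, against 1783 and 1818 bp in the knockout libraries.

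MPDU1, a protein that lets the dolichol-linked sugars be used in the lumen, had MYRF summits just inside the gene in HPAF2 and none in CFPAC1. They lay 344 and 432 bp downstream of the start, with folds of 3.93 and 4.24 (percentiles 15.9 and 22.0). HPAF2 replicate 2 also had a peak inside EIF4A1, 10653 bp upstream of MPDU1, at 4.95 (percentile 41.2). Counted only within 1 kb of the start, 2 of 34 genes (5.88%) had MYRF in both CFPAC1 libraries and 2 in both HPAF2 libraries, against 2.48% and 1.85% of the 9934 other genes with an acetylated start. These counts, of ALG3 and DPAGT1 in CFPAC1 and of DPAGT1 and MPDU1 in HPAF2, were added after the data were seen and were not tested.

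The other MYRF peaks lay away from the starts of these genes. DPM2, a small subunit of dolichol-phosphate mannose synthase, had an HPAF2 peak inside EEIG1, 18355 and 17801 bp upstream of its start, with folds of 5.72 and 3.64 (percentiles 57.9 and 8.81). That interval (chr9:127955408-127956299 in replicate 1) overlapped FOS peaks of both libraries of the CFPAC1 clone, at 14.3 and 7.81. GMPPA, the regulatory partner of the GDP-mannose pyrophosphorylase, had an HPAF2 peak inside the channel gene ASIC4, 23320 and 23249 bp downstream, with 6.58 and 6.44 (percentiles 68.9 and 65.6). Replicate 2 had a further one there at 4.71 (percentile 34.0). In both windows the gene holding the peak was not the glycosylation gene.

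In CFPAC1, GFPT1, the rate-limiting enzyme of the hexosamine pathway toward UDP-GlcNAc, had a weak peak within the gene, 28385 and 28544 bp from its start. The folds were 3.70 and 4.28 (percentiles 11.5 and 21.5), and replicate 1 had another, 18274 bp from the start, at 4.35 (percentile 28.6). The DPM1 count, for the catalytic subunit of dolichol-phosphate mannose synthase, came from peaks that did not overlap between replicates. Replicate 1 had 4.77 (percentile 41.6) within the gene, 16631 bp from the start, while replicate 2 had 3.67 (percentile 8.51) at 13154 bp and 4.82 (percentile 37.4) at 106 bp from the span of ADNP. UGGT1, the glucosyltransferase that senses unfolded glycoproteins, had 4.55 (percentile 35.3) in replicate 1 only, 45233 bp inside the gene. The GFPT1 and UGGT1 peaks and the intragenic DPM1 peaks had 0 bp of H3K27ac within 2 kb centred on the summit in all 4 libraries.

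**Figure D2:**
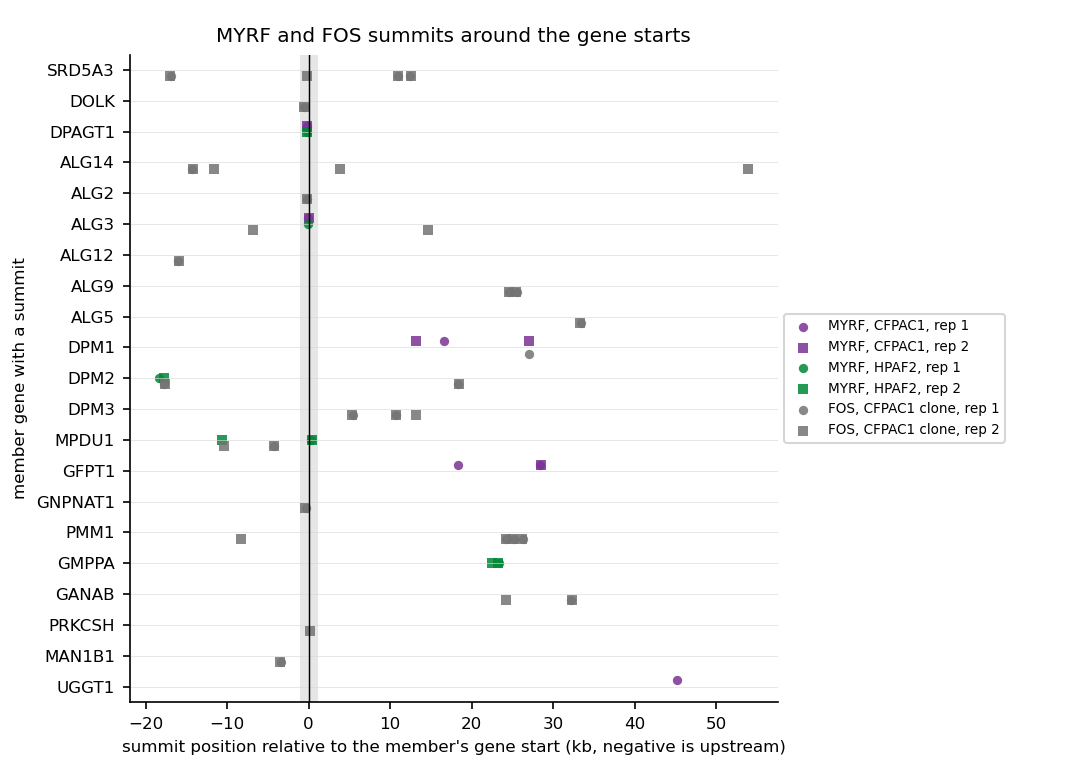
Distance of MYRF and FOS summits from the start of each member gene that has them (horizontal axis; negative values are upstream), 1 symbol per summit and library, coloured by target and cells; the grey band spans 1 kb on each side of the start. MYRF summits of DPAGT1 and ALG3, and all but 1 of those of MPDU1, lie in the band, and those of DPM2, GMPPA, GFPT1, DPM1 and UGGT1 lie kilobases away.

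FOS summits were present in the window of 15 of 36 genes (41.7%) in both FOS libraries, against 62.6% of the other acetylated genes. In at least 1 library the shares were 50.0% and 73.0%, with DPM1, ALG3 and PRKCSH added. Windows of these genes were slightly shorter than those of the others, with medians of 61.5 and 68.5 kb. Among windows up to 61.5 kb, FOS was found for 8 of 18 genes (44.4%) against 52.9% of the others, and among longer windows for 7 of 18 (38.9%) against 69.7%. Per 100 kb of window, there were 1.17 FOS summits against 1.69, while MYRF summits numbered 0.214 against 0.270 in CFPAC1 and 0.214 against 0.216 in HPAF2. The share of these genes with FOS was below that of the others under each of the 9 alternative ways of counting, and the difference was not tested.

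**Figure D3:**
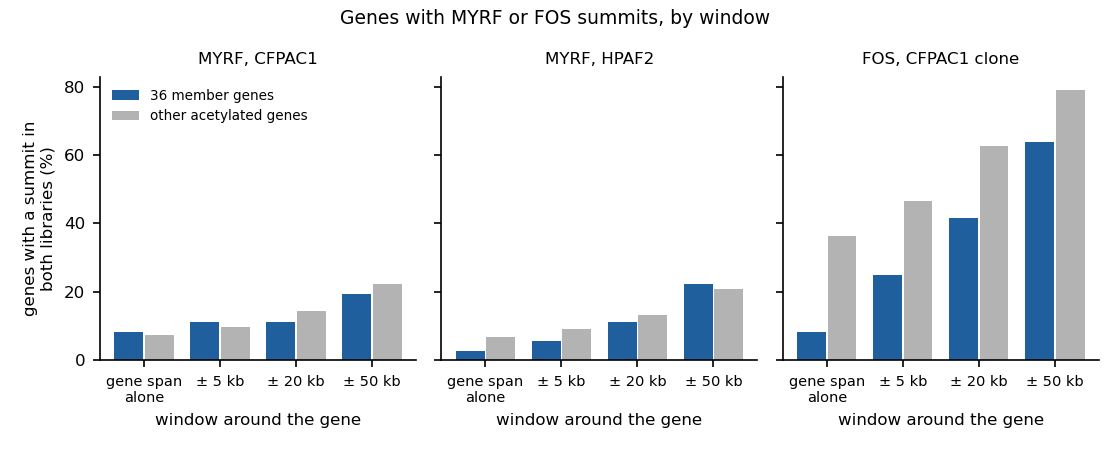
Percent of the 36 genes and of the 16096 other acetylated genes with a summit in both libraries (vertical axis) for the gene span alone and for windows of 5, 20 and 50 kb around it (horizontal axis), in panels for MYRF in CFPAC1, MYRF in HPAF2 and FOS. The FOS share is 41.7% against 62.6% in the main window and 8.33% against 36.4% in the gene span alone.

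The strongest FOS peaks in these windows often sat in or beside other genes. MAN1B1, an ER mannosidase of glycan trimming, had a FOS peak 3435 and 3478 bp upstream of its start, inside UAP1L1, with folds of 11.0 and 11.7 (percentiles 91.1 and 91.3). ALG2, which adds mannose on the cytosolic face, had FOS summits 195 and 151 bp upstream, at 8.81 and 10.9 (percentiles 83.7 and 89.4). They fell between ALG2 and SEC61B, the translocon subunit gene whose span begins 340 bp upstream of the ALG2 start, and the capitals of the third sequence mark the stretch. DPM2 had its highest FOS folds at different places in the replicates, 14.3 inside EEIG1 in replicate 1 (percentile 96.3) and 9.11 beside PIP5KL1 in replicate 2 (percentile 83.4). DPM3, the tethering subunit of the same synthase, had 8.62 and 11.3 (percentiles 82.7 and 90.4) inside EFNA1, an ephrin gene.

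SRD5A3, an enzyme in the last steps of dolichol synthesis, had an intragenic FOS peak 12464 and 12527 bp from its start with folds of 10.5 and 8.77 (percentiles 89.9 and 81.7). DOLK, which phosphorylates dolichol to make the carrier lipid, had FOS summits 633 and 572 bp upstream at 8.81 and 8.51 (percentiles 83.7 and 80.6). That peak lay inside NUP188, whose span begins 96 bp upstream of the DOLK start. GNPNAT1, the acetyltransferase of the hexosamine pathway, had summits 369 and 414 bp upstream at 7.09 and 8.44 (percentiles 72.1 and 80.1), with GNPNAT1 itself the nearest gene.

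The remaining genes with FOS in both lists were ALG5, ALG9, ALG12, ALG14, GANAB, MOGS, MPDU1 and PMM1. Of these, ALG5 and ALG9 held a FOS peak of both libraries inside the gene, PMM1 had its peaks inside CSDC2, and MPDU1 had its peak beside CD68. When each summit was given only to the nearest gene, 4 of 36 genes remained with FOS in both lists (ALG5, ALG9, GNPNAT1 and SRD5A3, 11.1%), against 46.0% of the others. Within 1 kb of the start the count was 3 of 34 (ALG2, DOLK and GNPNAT1, 8.82%), against 13.8% of the other genes with an acetylated start.

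Single roles hold 4 to 6 genes, too few to set against the 62.6% (FOS), 14.2% (MYRF in CFPAC1) and 13.1% (MYRF in HPAF2) of the other acetylated genes. By role, FOS in both lists was found for 4 of the 5 genes of dolichol-linked sugar donors (ALG5, DPM2, DPM3 and MPDU1) and 3 of the 5 of trimming and quality control (GANAB, MOGS and MAN1B1). It was found for 2 of 5 in dolichol supply, 2 of 6 in cytosolic assembly, 2 of 6 in lumenal assembly, 1 of 4 in UDP-GlcNAc supply and 1 of 5 in GDP-mannose supply. MYRF in both CFPAC1 libraries was found for 0 genes of dolichol supply, GDP-mannose supply and trimming, and for 1 gene in each of the other 4 roles. In HPAF2 it was found for 2 of the 5 sugar donor genes (DPM2 and MPDU1), for 1 gene each of cytosolic assembly and GDP-mannose supply, and for 0 of the other 4 roles.

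Neither MYRF nor FOS had a summit in any list for 14 genes (38.9%), against 23.0% of the 16096 other acetylated genes. They were the dolichol genes DHDDS, NUS1 and DOLPP1, the cytosolic-face genes ALG1, ALG11 and ALG13, the glucosyltransferases ALG6, ALG8 and ALG10, the nucleotide sugar genes PGM3, UAP1, MPI and PMM2, and GMPPB, the catalytic GDP-mannose pyrophosphorylase. MYRF without any FOS summit was seen for DPAGT1, GFPT1, GMPPA and UGGT1 (11.1%, against 3.98%). MYRF in at least 1 list together with FOS in both lists was seen for DPM2 and MPDU1 (5.56%, against 26.0%). These shares were not tested, and they take up the same FOS counts as above. Because FOS was mapped in a clone and MYRF in the original lines, a difference between the factors cannot be told apart from one between the cells.

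H3K27ac marked the start of every gene that had an annotated one. All 34 starts were acetylated within 1 kb in all 4 libraries, against 75.1% of 12965 other acetylated genes with an annotated start. The peaks at the start had median percentiles of 87.0 and 89.4 (control clone) and of 92.4 and 88.5 (knockout clone). In the same order the other genes had 87.3, 87.6, 89.0 and 86.9. Over the whole window the medians were below those of the comparison genes, a difference that was not tested. Coverage had medians of 2.95 and 2.64 kb (control clone) and of 2.51 and 2.69 kb (knockout clone), against 4.51, 4.42, 4.26 and 4.26 kb in the other genes. The median share of the coverage, taken over all 4 libraries, that lay within 1 kb of the start was 48.9% against 28.3%.

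The genes spread widely around these medians. DPAGT1 (mean of the control libraries 13.3 kb), DPM3 (11.6 kb) and GANAB, the catalytic subunit of glucosidase II (11.5 kb), had the longest H3K27ac coverage. ALG10 (0.547 kb), NUS1 (0.632 kb) and ALG11 (0.677 kb) had the shortest. In 6 of 34 genes (17.6%), at least 90% of the coverage lay within 1 kb of the start in all 4 libraries. These start-only genes were ALG1, ALG6, ALG11, GMPPB, NUS1 and PGM3. Among the 9736 other genes with a start acetylated in all 4 libraries, 3.75% were of this kind. Of the 6 members, 0 had FOS in both lists, where 12.6% of the 365 other genes of this kind did. Of the other 28 members, 14 had it (50.0%). Of the 9371 comparison genes with a start acetylated in all 4 libraries but no start-only pattern, 65.1% had it. Genes with FOS in both lists had a median control coverage of 7.42 kb (range 1.43 to 11.6, n = 15), and the other 21 had 1.90 kb (0.547 to 13.3), ranges that overlap. In the comparison genes the medians were 6.37 and 2.62 kb.

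**Figure D4:**
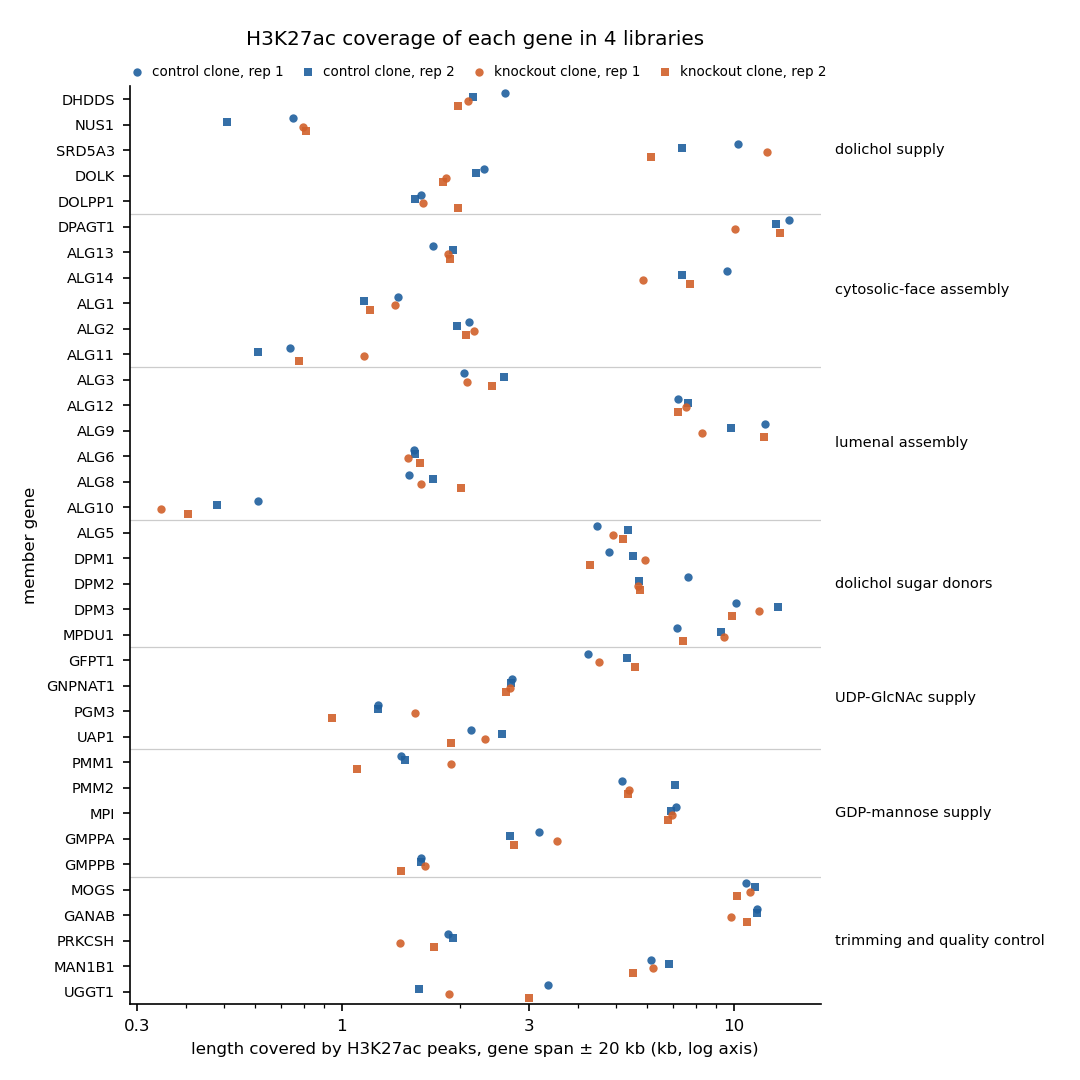
Length covered by H3K27ac peaks in the window of each of the 36 genes (horizontal axis, kb, logarithmic), with 1 symbol per library of the control and knockout clones. In bp the clones overlap for 27 of the 33 genes tested, while the genes range in mean control coverage from 0.547 kb (ALG10) to 13.3 kb (DPAGT1).

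Between the clones, no gene of the pathway was called different in acetylated length. Coverage was compared by limma on log2(bp + 1000), centred on each library's median, over 15095 genes with a mean of at least 1000 bp, which took in 33 of the 36 and left out ALG10, ALG11 and NUS1. At an adjusted p threshold of 0.05, 0 genes of the 15095 (0%) were lower and 0 (0%) higher in the knockout clone. At an unadjusted p under 0.05 there were 812 genes and 0 of the 33. The lowest adjusted p among the 33 was 0.947, and it lay between 0.612 and 1.00 under the other settings tried. The median knockout minus control difference was 0.036 on the log2 scale over the 33 genes and 0.012 over all genes tested, and 12 of the 33 were below 0.

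The most negative differences belonged to ALG14, DOLK, DPAGT1 and PRKCSH. ALG14, the membrane anchor of the transferase that adds the second GlcNAc, had 9624 and 7361 bp in control and 5878 and 7746 bp in knockout libraries, groups that overlap, for a log2 difference of -0.22 (SE 0.19). DOLK had 2311 and 2205 bp against 1848 and 1811 bp, with both knockout libraries below both controls (-0.14, SE 0.10). DPAGT1, the gene with MYRF at its start in all 4 libraries, had 13870 and 12812 bp against 10082 and 13126 bp, groups that overlap (-0.14, SE 0.16). PRKCSH, the regulatory subunit of glucosidase II, had 1870 and 1927 bp against 1409 and 1718 bp without overlap (-0.12, SE 0.12). Single libraries moved these values. The DPAGT1 difference was 0.04 without knockout replicate 1 and -0.31 without knockout replicate 2. That of ALG14 lay between -0.40 and -0.05 with each library left out, that of PRKCSH between -0.21 and -0.03, and that of DOLK between -0.16 and -0.13.

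The most positive differences belonged to DOLPP1, ALG8, GMPPA and GFPT1. DOLPP1, a phosphatase that recycles the dolichol carrier, had 1593 and 1535 bp in control and 1610 and 1976 bp in knockout libraries, without overlap (0.18, SE 0.12). ALG8, which adds the second glucose, had 1485 and 1708 bp against 1595 and 2021 bp (0.17, SE 0.13). GMPPA had 3188 and 2687 bp against 3548 and 2753 bp (0.13, SE 0.14), and GFPT1 had 4239 and 5358 bp against 4526 and 5587 bp (0.12, SE 0.16). The groups of ALG8, GMPPA and GFPT1 overlapped. Leaving out each library in turn moved GMPPA between -0.01 (without knockout replicate 1) and 0.27, and GFPT1 between -0.03 (without control replicate 1) and 0.27. Neither kept its sign, while DOLPP1 (0.08 to 0.28) and ALG8 (0.06 to 0.28) did. With coverage centred by library, both knockout libraries lay below both control libraries for 3 of 33 genes (DOLK, GANAB and PRKCSH), where 15.3% of all tested genes did, and above them for 6 (ALG13, ALG2, ALG6, DOLPP1, GNPNAT1 and MPI), where 18.8% did. In uncentred bp the counts were 5 below, against 26.1%, and 1 above, against 10.4%. The control lists covered more in total (100.5 and 95.2 Mb) than the knockout lists (87.9 and 92.9 Mb), and GNPNAT1 was below in bp and above after centring. An exact permutation test of 2 against 2 libraries cannot go below p = 0.333.

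**Figure D5:**
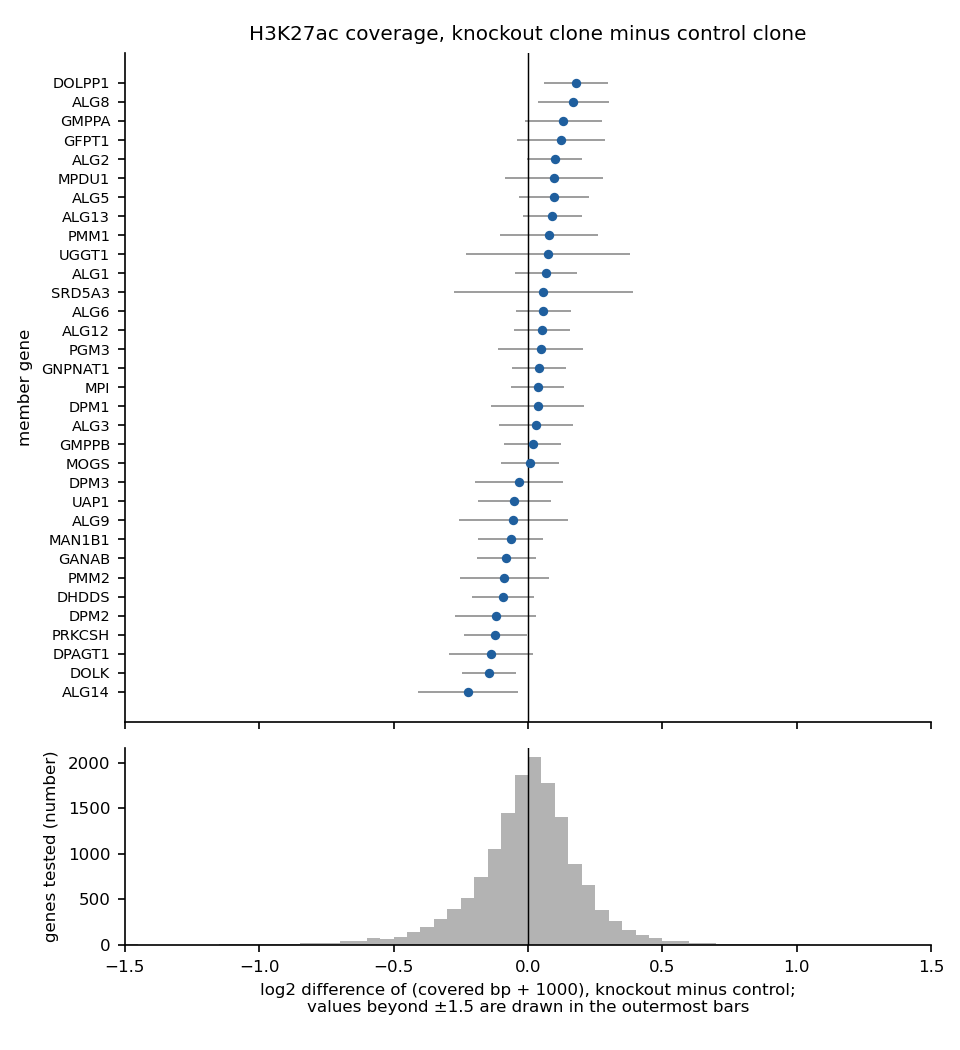
Knockout minus control difference in H3K27ac covered length (log2 of bp + 1000, centred by library) for the 33 genes tested, with standard errors from limma, beside the distribution over all 15095 genes. Values run from -0.22 for ALG14 to 0.18 for DOLPP1.

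Promoter sequence was described by its composition and by 5 motifs. In the window from 250 bases before to 50 after the start, the median GC content was 63.5% for the 34 genes and 62.7% for 15809 other promoters. The MYRF core motif (CTGGCAC or CTGGTAC, on either strand) occurred in 2 of 34 windows, those of ALG13 and PRKCSH, where 6.67% of all 15843 promoters hold it. It was not found among the letters of the DPAGT1 or ALG3 windows, which hold their MYRF summits at the start, or in the MPDU1 window. The MPDU1 summits, 344 and 432 bp downstream of its start, lay beyond that window, so the sequence under them was not searched. The AP-1 motif (TGACTCA or TGAGTCA) occurred in 0 of 34, against 3.66%, and the cyclic AMP response element (TGACGTCA) in 0, against 2.59%. The core of the unfolded protein response element (TGACGTGG or TGACGTGT) occurred in DHDDS and UAP1, against 1.17%. The ERSE, which shares letters with the reverse of that core, occurred in ALG12, 134 to 116 bp upstream of its start, against 0.12% of all promoters. ALG12, the lumenal mannosyltransferase, shares this interval with CRELD2, an ER stress gene whose span begins 196 bp upstream.

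In 12 of 34 genes (35.3%) the span of another protein-coding gene began or ended within 1 kb upstream of the start, against 16.2% of the 12965 other genes. They included the pairs of ALG2 with SEC61B, ALG12 with CRELD2, DOLK with NUP188, DPAGT1 with C2CD2L, GANAB with INTS5 and PGM3 with RWDD2A, the last 92 bp apart. At such starts, a peak or an acetylated interval cannot be assigned to either gene from position alone.

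Genes of the next steps were counted in the same way. Of 11 oligosaccharyltransferase genes, MYRF had summits in both libraries for 2 in CFPAC1 (DAD1 and STT3A) and 3 in HPAF2 (DAD1, KRTCAP2 and RPN1), and FOS for 3. The shares among other acetylated genes were 14.2% (MYRF, CFPAC1), 13.1% (MYRF, HPAF2) and 62.6% (FOS), and no list was tested against them. Of 14 genes of the calnexin cycle and later mannose trimming, the counts were 1 (the lectin chaperone CANX), 1 (the Golgi mannosidase MAN1A1) and 5. Of 8 paralogs and genes of further steps they were 0, 2 (the sialic acid enzyme GNE and the GlcNAc kinase NAGK) and 5. Of 13 unfolded protein response genes, MYRF was found for 2 in CFPAC1 (the stress sensor ERN2 and the chaperone HSP90B1) and for 4 in HPAF2, where CREB3L1 and DDIT3 were added. FOS was found for 8. The MYRF peaks of HSP90B1 did not overlap between replicates in either line, nor did those of DDIT3 and NAGK in HPAF2. These counts therefore do not rest on a shared peak.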

How the data were processed

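Data were ChIP-seq peak lists of 10 libraries, grouped by the labels. Per the submitters' processing notes, the tools were MACS2 2.1.0.20150731, Bowtie2 2.2.6, Trimmomatic 0.38 and SAMtools, on assembly GRCh38. The authors deposited, for every peak, a fold enrichment (a linear ratio), −log10 p, −log10 q and a score. The control used to call the CFPAC1 peaks is not given in the sources used here. Fold was used only to rank peaks within a list. The deposited lists hold no counts, so depth is unknown. Replicate lists were not copies (0 intervals with an equal fold). Nothing states that replicates were separate cultures, so p-values measure only the spread between these libraries, which may be technical.

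Genes and starts came from RefSeq tables (GRCh38.p14 for sequences), matched by symbol. Any summit in a window of 20 kb around the span was counted, so a peak can belong to several genes. H3K27ac covered length was tested with limma 3.58.1 (R 4.3.3), Benjamini-Hochberg adjusted over all tested genes, after the code was tested on simulated data. The library numbers 1 and 2 were not used as pairs. Tables used Python 3.11.15, numpy 2.4.6, pandas 2.3.3 and matplotlib 3.10.9. The members and all lists, motifs and tests were chosen with earlier results of these data known. Named with values were genes with a MYRF summit in any list, and the 6 highest FOS genes by percentile in the list where they rank lower. The 4 most negative and 4 most positive acetylation differences were also named, as were the 3 longest and 3 shortest H3K27ac covered lengths. GNPNAT1 was given in addition, after its values were seen, as were the neighbouring genes other than those nearest to MYRF peaks. Alternatives covered the window, how summits were assigned, a stricter −log10 q of at least 10, the pseudocount, centring, filters and each library left out.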

Additional observations from a re-analysis of the deposited data

How the results depend on the processing

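Counts of genes with MYRF or FOS in both libraries followed the assignment rule. For MYRF in CFPAC1 (4 genes), the count was 7 with windows of 50 kb and 1 (DPAGT1) at a −log10 q of at least 10. These were 19.4% and 2.78% of the members, against 22.3% and 5.68% of the other genes. The members' share was the higher with windows of 5 kb (11.1% against 9.77%) and with the gene span alone (8.33% against 7.43%). It was also higher with the nearest gene (11.1% against 9.53%), so the direction followed the rule. For MYRF in HPAF2 (4 genes), it was 2 with windows of 5 kb, 8 with 50 kb, 1 with the gene span alone, 1 with the nearest gene and 0 at a −log10 q of at least 10. In that order the members' shares were 5.56%, 22.2%, 2.78%, 2.78% and 0%. Those of the other genes were 8.95%, 20.9%, 6.69%, 9.10% and 5.96%, so among these settings the members' share was the higher only with 50 kb. It was also the higher within 1 kb of the start (5.88% against 1.85%). For FOS (15 genes), it was 9 with 5 kb, 23 with 50 kb, 3 with the span alone, 4 with the nearest gene and 9 at a −log10 q of at least 10. In that order the members' shares were 25%, 63.9%, 8.33%, 11.1% and 25%. Those of the other genes were 46.7%, 79.0%, 36.4%, 46.0% and 37.1%. Counting within 1 kb of the start, added after the data were seen, gave 2, 2 and 3 (5.88%, 5.88% and 8.82%, against 2.48%, 1.85% and 13.8%). Leaving out each library gave 4 to 5, 4 to 5 and 16 to 17 genes. The other genes then had 18.0% to 19.8% (MYRF, CFPAC1), 16.2% to 18.4% (MYRF, HPAF2) and 64.2% to 71.5% (FOS). Of genes called different between the clones by limma, 0 were lower and 0 higher in 14 settings, and 1 was higher with a pseudocount of 100 bp. Within 1 kb of the start, also added later, limma called 12 lower and 11 higher of 10343 genes tested, with 0 of the 34 members among them. With so few calls over all genes, 0 among 34 says nothing particular about the members. The members' median difference was -0.023 without centring, 0.092 with centring on total length, 0.11 with the number of summits in place of length, and between -0.014 and 0.051 with each library left out. It was -0.014 without knockout replicate 1. Deviations of same-numbered libraries correlated at r = -0.199 over genes. A replicate block gave 0 calls (620 genes at an unadjusted p under 0.05, limma), and the crossed block, added later, 0 calls (1134 genes). Depth is unknown, and so are the limits it sets on these lists.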

Other observations

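A few related genes outside the 36 with MYRF summits in their windows were singled out after their values were seen. RPN1, an oligosaccharyltransferase subunit, had HPAF2 peaks 426 and 399 bp from its span with folds of 8.47 and 9.23 (percentiles 81.5 and 84.5). DAD1, another subunit, had stronger HPAF2 peaks at 30.8 and 41.3 (percentiles 98.6 and 99.1), 3675 and 3695 bp from its span. CFPAC1 had peaks at that site too, at 7.61 and 6.55 (percentiles 80.4 and 70.8). Its highest DAD1 peaks, at 17.5 and 17.0 (percentiles 96.1 and 95.5), lay 8275 and 8352 bp from the span. There HPAF2 had 6.47 and 5.27 (percentiles 68.0 and 48.1). NAGK, which salvages GlcNAc, had weak HPAF2 peaks 122 and 428 bp downstream of its start at 3.93 and 3.78 (percentiles 15.9 and 11.2). The NAGK peaks did not overlap between replicates. ATF4, a transcription factor of the unfolded protein response, had a peak 143 bp upstream of its start in CFPAC1 replicate 1 at 9.03 (percentile 86.3) and 112 bp upstream in HPAF2 replicate 2 at 6.72 (percentile 68.7). The other library of each line had no ATF4 peak, so the gene counted in neither line. ERN2, which counted in both lines, had peaks inside its span. Their folds were 12.5 and 11.6 in CFPAC1 (percentiles 92.7 and 90.6) and 29.8 and 31.0 in HPAF2 (percentiles 98.4 and 98.3).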
